A study of Mus musculus with 3 samples.

Results

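The 38 genes described here, of 32285 counted, encode the lipid-handling machinery and the secreted products of the white adipocyte, and they were taken by symbol for their known roles, with earlier results of these data known. All 38 symbols were found in the count matrices. They fall into 6 coats and regulators of the lipid droplet (*Plin1*, *Plin2*, *Plin4*, *Plin5*, *Cidec*, *Cidea*), 7 proteins of uptake and intracellular transport (*Lpl*, *Cd36*, *Fabp4*, *Fabp5*, *Slc2a4*, *Acsl1*, *Aqp7*), 8 enzymes of fatty acid synthesis and desaturation (*Acly*, *Acaca*, *Acacb*, *Fasn*, *Elovl6*, *Scd1*, *Scd2*, *Me1*), 6 enzymes of triglyceride and glycerol 3-phosphate formation (*Gpd1*, *Pck1*, *Agpat2*, *Lpin1*, *Dgat1*, *Dgat2*), 4 genes of lipolysis (*Pnpla2*, *G0s2*, *Lipe*, *Mgll*), 5 secreted proteins (*Adipoq*, *Retn*, *Cfd*, *Hp*, *Lep*) and *Car3* and *Nnat*, which are abundant in fat but outside these pathways.

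An adipocyte fills by taking up fatty acids that lipoprotein lipase frees from circulating triglyceride and by making new ones from glucose. It joins both to glycerol 3-phosphate and stores the triglyceride in a droplet coated by perilipins. Lipases release the fatty acids again when fuel is needed. The cell also secretes adiponectin, resistin, leptin and adipsin into the blood. Adipocytes arise in the stroma from *Pdgfra*-positive progenitors through committed preadipocytes, and *Pparg* and *Cebpa* are the transcription factors that drive the step.

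The cells were inguinal stromal vascular fraction of 4-week-old mice of both sexes, sorted as CD45-negative and DAPI-negative after floating, lipid-loaded adipocytes had been spun off, so cells with large droplets were largely lost before counting. There was 1 library of pooled mice for each of 3 genotypes. These were Wild-type mice, *Mgp*-KO mice with a global deletion of *Mgp* (matrix Gla protein, an inhibitor of bone morphogenetic proteins), and Pd-KO mice, in which a *Pdgfra*-driven Cre removed a floxed *Mgp*, so that cells without a history of *Pdgfra* kept the gene. The Wild-type mice, not floxed littermates without Cre, served as the control for both. Since a genotype was 1 library, no test over replicates could be made, and every interval below is a 95% interval of counting error only.

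Barcodes of at least 2000 unique molecular identifiers (UMIs) and at most 10% mitochondrial UMIs were kept as cells, 10511 in the Wild-type, 12575 in the *Mgp*-KO and 8819 in the Pd-KO library, with median depths of 12802, 6445 and 8269 UMIs. Pairs of libraries shared 35 to 40 barcode sequences. *Mgp* fell from 451 CPM (counts per 1000000 UMIs) over all Wild-type cells to 1.75 CPM in *Mgp*-KO and 18.1 CPM in Pd-KO cells, and was 510, 1.90 and 0.597 CPM in the adipose progenitor-like (APC-like) cells of the same libraries. The libraries stood apart in free RNA. Barcodes ranked 45000 to 90000 by size held a median of 355 UMIs in the Wild-type library and 9 and 38 in the knockout libraries. Luminal epithelial-like cells, which serve here as the class that should lack adipocyte RNA, had *Fabp4* at 922, 99.7 and 392 CPM, and 98.1%, 15.6% and 28.0% of them had a *Fabp4* UMI, at median depths of 21640, 8892 and 10846 UMIs. For *Adipoq* these cells had 3.41, 0.167 and 0 CPM. A level at or under that of luminal cells was read as background.

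The upstream sequences of 2 members are shown because they represent the ends of the order described next. *Plin2* was near its final level before an *Adipoq* UMI was seen, and *Adipoq* set the last stages. The 250 bases before the annotated start are from RefSeq on GRCm38.p6, 5′ to 3′ on the gene's strand, at chr4:86670060-86670309 (minus strand) for *Plin2* and chr16:23146286-23146535 (plus strand) for *Adipoq*. Capitals mark AGGTCA, the half-site of nuclear receptors such as PPARγ, and CCAAT, each on either strand.
Plin2: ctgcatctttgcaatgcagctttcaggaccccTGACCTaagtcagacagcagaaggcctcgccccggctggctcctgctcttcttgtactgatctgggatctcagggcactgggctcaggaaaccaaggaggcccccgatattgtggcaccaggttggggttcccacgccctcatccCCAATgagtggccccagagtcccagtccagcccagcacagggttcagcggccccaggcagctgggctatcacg
Adipoq: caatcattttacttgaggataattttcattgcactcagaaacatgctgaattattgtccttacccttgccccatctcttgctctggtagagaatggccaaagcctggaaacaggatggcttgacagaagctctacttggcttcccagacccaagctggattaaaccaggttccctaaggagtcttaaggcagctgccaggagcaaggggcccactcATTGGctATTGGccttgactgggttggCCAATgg
The motifs were counted on both strands in windows that run 50 bases past the start, beyond the stretches printed, and 26 of the 38 members had such an entry. AGGTCA lay in the window of 8 of the 26 (30.8%), against 18.1% of 27025 gene promoters, and CCAAT in 10 (38.5%), against 41.1%. The full PPAR element AGGTCANAGGTCA and the pattern TTGCNNCAA were in none of the 26, and in 0.0481% and 2.38% of all promoters. The second pattern is not the C/EBP core sequence, so sites of that factor were not counted. The E-box CACGTG was in 3 of the 26, those of *Plin2* (where it lies across the end of the printed stretch), *Lipe* and *Mgll*, against 8.09% of all. A match to letters is not a bound site.

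The first question was in which order the members appear between progenitors and cells with much *Adipoq*, the adiponectin gene. Between the interstitial progenitor-like cells and the *Adipoq*-positive cells lay 2 clusters. One, led by *Thsd7a*, *Cxcl1* and *Col4a1*, had all 7 preadipocyte markers raised and is called preadipocyte-like. The other was led by *Car3*, *Adipoq*, *G0s2* and *Plin1*, although the 38 members had been kept out of the genes that were clustered. It scored as high on the adipocyte list as on that of preadipocytes (0.811 and 0.774) and was given no name. Cells of both clusters together are called *Thsd7a*/*Car3* cells.

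The 5 stages were set as follows. Interstitial progenitor-like cells and *Thsd7a*/*Car3* cells were taken with at least 1 *Pdgfra* UMI and no *Adipoq* UMI, and stromal cells with *Adipoq* were split at 5 and 20 *Adipoq* UMIs per 10000 into low, middle and high. In the Wild-type library the stages held 2311, 1917, 294, 82 and 14 cells. The *Adipoq*-high cell nearest to the threshold had 20.4 *Adipoq* UMIs per 10000 and the nearest cell below it 19.8. All cells came from mice of 1 age, so the order is one across cells. Levels of *Adipoq* itself follow from the gates. Those of *Pdgfra* do so in part, since its UMI was required of interstitial and *Thsd7a*/*Car3* cells only. *Pparg* and *Cebpa* are on the marker lists that named the clusters, so their levels are not independent of the stages either.

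The stage markers moved mostly as the names of the stages say, but those of interstitial cells did not fall steadily. *Pi16* was 1827, 60.4, 477, 125 and 26.5 CPM along the 5 stages, and *Dpp4* 296, 13.0, 80.7, 14.8 and 3.78 CPM. *Adipoq*-low cells were taken from all stromal clusters, interstitial ones among them. That stage is therefore a mixture and not only a step after *Thsd7a*/*Car3* cells. In CPM from interstitial to high, *Pdgfra* was 290, 337, 214, 36.3 and 22.7. *Col1a1* fell from 18200 to 791 CPM, and *Dcn* was 9366 CPM at the start and 1356 at the end. *Pparg* was 15.1, 73.3, 100.2, 297 and 390 CPM, and *Cebpa* 11.2, 36.0, 71.9, 253 and 348 CPM. The cells rich in *Adipoq* were therefore low in stromal matrix RNA and high in both adipogenic factors. They were also deep. Median depth was 14398, 14727, 17317.5, 37159.5 and 38853.5 UMIs along the 5 stages, and the part of depth in the order was not tested beyond the use of CPM. None of the 14 *Adipoq*-high cells and 9 of the 82 middle cells (11%) were among the 8% of cells with the highest doublet score.

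The members did not come on together. Each level was expressed as a percent of the level in the *Adipoq*-high cells for the 28 members with at least 20 UMIs there. Of these, 10 reached 10% already in interstitial progenitor-like cells, *Fabp4* reached it in *Thsd7a*/*Car3* cells, 9 in *Adipoq*-low cells and 8 in *Adipoq*-middle cells. Of the 10, *Lpl*, *Scd1*, *Scd2* and *Mgll* were over 2 times the luminal level in interstitial cells, *Plin2*, *Cd36* and *Acly* were above it by less, and *Lpin1*, *Fasn* and *Me1* were at or under it. For *Me1* that level is no measure of background, since luminal cells had the most of it among the classes named below. The median member stood at 1.81% of its final level in interstitial, 5.61% in *Thsd7a*/*Car3* cells, 15.4% in *Adipoq*-low and 72.1% in *Adipoq*-middle cells. Over all 3057 genes with as many UMIs the medians were 66.8%, 72.1%, 81.9% and 95.2%, and 95.7% of these genes were at 10% or more in interstitial cells. In *Thsd7a*/*Car3* cells 10 of the 28 members were at 10% or more, against 97.6% of all genes. For a typical member the largest step lay between the *Adipoq*-low and the *Adipoq*-middle cells. The 28 include *Adipoq*, whose steps the gates set. Members were kept for their UMIs in *Adipoq*-high cells and scaled to them, so low earlier levels are in part built in. The stages were cut on *Adipoq*, so the place of this step is also in part set by the gates for members that rise with it.

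**Figure D1:**
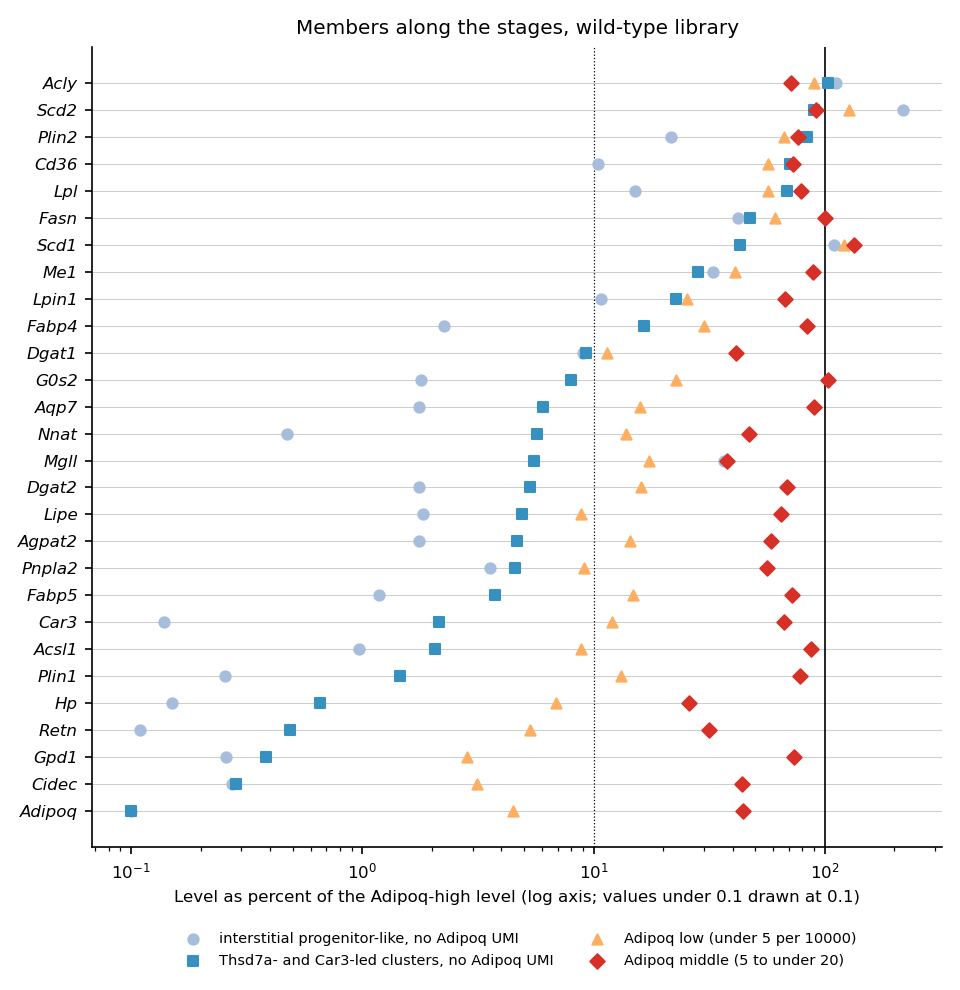
Level of each of 28 members in 4 stages of the Wild-type library as percent of its level in the 14 *Adipoq*-high cells (log axis, each marker 1 stage, dotted line at 10%, solid line at 100%). *Acly*, *Scd2* and *Plin2* lie close to their final level in *Thsd7a*/*Car3* cells, whereas *Cidec*, *Gpd1*, *Retn* and *Hp* are under 10% until the *Adipoq*-middle stage, and *Adipoq* is placed by the gates.

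Of the uptake genes *Lpl* and *Cd36* were early, and so was a droplet coat. *Lpl* encodes lipoprotein lipase, and its level was 938, 4291, 3548, 4896 and 6228 CPM along the stages, so that *Thsd7a*/*Car3* cells without *Adipoq* were at 68.9% of the *Adipoq*-high level. *Cd36*, the fatty acid translocase, was 53.1, 359, 290, 371 and 509 CPM. *Plin2*, the droplet coat found in most cell types, kept the same pattern at 108, 421, 335, 385 and 501 CPM. All 3 rose mostly at the step from interstitial to *Thsd7a*/*Car3* cells and little after it. In luminal epithelial-like cells of the same library they were at 385, 41.6 and 87.2 CPM, so that *Cd36* and *Plin2* in interstitial cells were close to that background and *Lpl* was above it. In the *Thsd7a*-led cluster alone, without *Adipoq*, they were at 75.9%, 78.4% and 93.4% of the *Adipoq*-high level, and in the *Car3*-led one at 55.6%, 55.4% and 66.9%.

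The fatty acid binding proteins came next. *Fabp4*, the major one of adipocytes, was 682, 4972, 9037, 25190 and 30200 CPM, and the interstitial value lay below the 922 CPM of luminal cells. *Fabp5*, its relative, was 58.0, 185, 732, 3569 and 4924 CPM, with 46.7 CPM in luminal cells. *Fabp4* was thus at 16.5% and *Fabp5* at 3.76% of the final level in *Thsd7a*/*Car3* cells without *Adipoq*. *Acsl1*, which activates fatty acids with coenzyme A, was later still, at 4.26, 9.09, 38.9, 384 and 439 CPM. *Aqp7*, the glycerol channel, reached 15.9% in *Adipoq*-low and 89.6% in *Adipoq*-middle cells, on 23 UMIs in *Adipoq*-high cells.

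Among the droplet coats, *Plin1*, the adipocyte perilipin, was 1.42, 8.07, 73.0, 434 and 556 CPM. *Cidec*, which fuses droplets into 1 large one, was 0.296, 0.306, 3.38, 47.4 and 108 CPM. *Cidec* was the later of the pair, at 3.13% of its *Adipoq*-high level in *Adipoq*-low cells where *Plin1* was at 13.1%. *Plin4* had 16 UMIs in *Adipoq*-high cells, at 30.3 CPM, and was nearly as high (28.0 CPM) in *Thsd7a*/*Car3* cells without *Adipoq*. *Plin5* and *Cidea*, which mark oxidative and brown fat, had no UMI in the 14 *Adipoq*-high cells.

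Most genes of triglyceride assembly and lipolysis first passed 10% in *Adipoq*-low or *Adipoq*-middle cells, *Lpin1* and *Mgll* excepted. *Gpd1*, which makes glycerol 3-phosphate, was 0.709, 1.06, 7.82, 201 and 274 CPM. *Agpat2*, the acyltransferase mutated in congenital lipodystrophy, was 10.4, 27.8, 85.4, 347 and 592 CPM. The last acyltransferases *Dgat1* and *Dgat2* ended at 113.5 and 108 CPM from 9.01% and 1.75% in interstitial cells, and *Lpin1*, a phosphatidate phosphatase, was 8.78, 18.6, 20.6, 54.8 and 81.4 CPM, with 8.97 CPM in luminal cells. *Pck1*, the key enzyme of glyceroneogenesis, had 12 UMIs in *Adipoq*-high cells. *Pnpla2*, the first triglyceride lipase, was 16.4, 21.1, 41.9, 259 and 462 CPM, and *Lipe*, hormone-sensitive lipase, 3.52, 9.43, 17.1, 125 and 193 CPM. Their steepest step was the one into the *Adipoq*-middle cells. *G0s2*, an inhibitor of the enzyme encoded by *Pnpla2*, went ahead of it at 41.6, 186, 526, 2384 and 2312 CPM. *Mgll*, the monoglyceride lipase, did not follow a single direction, at 95.2 CPM in interstitial, 14.3 in *Thsd7a*/*Car3* cells, 45.1 and 98.1 in the middle stages and 259 CPM in *Adipoq*-high cells.

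Genes of fatty acid synthesis showed almost no order. *Acly*, which makes cytosolic acetyl-CoA, was 59.6, 54.5, 47.8, 38 and 53.0 CPM. *Scd2*, a desaturase, was highest in interstitial cells, at 120 CPM against 49.1 in *Thsd7a*/*Car3* cells and 54.9 in *Adipoq*-high cells. *Scd1*, the other desaturase, had its lowest level in *Thsd7a*/*Car3* cells (26.0 CPM) and was 66.4 CPM in interstitial and 60.5 CPM in *Adipoq*-high cells. *Fasn* rose from 16.7 to 39.7 CPM and *Me1*, a source of NADPH, from 17.4 to 53.0 CPM. These 5 genes rested on 21 to 32 UMIs each in *Adipoq*-high cells. *Acaca*, *Acacb* and *Elovl6* had 11, 1 and 4 UMIs there.

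Of the secreted products, *Retn* (resistin) was 0.975, 4.32, 47.3, 281 and 891 CPM and *Hp* (haptoglobin) 0.769, 3.34, 35.0, 132 and 509 CPM. Both were at less than 50% of the final level in the *Adipoq*-middle cells, as was *Adipoq* (44.2%). *Lep*, the leptin gene, had no UMI in *Adipoq*-high cells and 3 UMIs in 1 of the 96 Wild-type cells with at least 5 *Adipoq* UMIs per 10000. *Car3*, a carbonic anhydrase that is among the most abundant transcripts of white fat, was 27.8, 432, 2412, 13330 and 20050 CPM, with 48.5 CPM in luminal cells. *Nnat*, the imprinted neuronatin gene, was 3.90, 46.8, 114, 389 and 823 CPM. 
The other lipid genes of the pathway were taken from a list of 40 (lipase cofactors, further acyltransferases, transporters, desaturases and adipocyte proteins). Those with at least 100 CPM in Wild-type *Adipoq*-high cells were *Abhd5*, the cofactor of the first lipase (316 CPM, 16.0% of it in interstitial cells), *Bscl2*, the seipin gene (153 CPM, 26.4%), *Angptl4*, an inhibitor of lipoprotein lipase (358 CPM, 67.3%), *Adig*, adipogenin (197 CPM, 0.120%), *Cdo1*, cysteine dioxygenase (236.5 CPM, 1.20%), *Rbp4*, retinol binding protein (751 CPM, 3.94%), and *Tkt* and *Pgd* of the pentose phosphate pathway (293 and 121 CPM, 31.7% and 46.6%). *Rbp4* passed 10% in *Thsd7a*/*Car3* cells (13.7%), *Cdo1* in *Adipoq*-low cells (10.1%) and *Adig* in *Adipoq*-middle cells (63.2%).

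In the knockout libraries an order could be read for fewer members, since *Adipoq*-high cells numbered 7 in *Mgp*-KO and 4 in Pd-KO mice. It was the same as in the Wild-type library only in part. Of 19 members with enough UMIs in both libraries, 12 reached 10% at the same stage in *Mgp*-KO as in Wild-type cells, and 11 of 15 did in Pd-KO cells. For 50% the counts were 10 of 19 and 9 of 15. The share of all genes that kept their stage was not taken. *Plin2* was first past 10% in interstitial cells in all 3 libraries, at 21.5%, 30.4% and 15.6%, and *Pnpla2* and *Acsl1* in the *Adipoq*-middle cells. *Fabp4* differed. Its level in *Thsd7a*/*Car3* cells without *Adipoq* was 16.5% of the *Adipoq*-high level in the Wild-type library and 7.81% and 5.71% in the *Mgp*-KO and Pd-KO libraries. The free RNA of the libraries moved in the same direction, from 922 CPM of *Fabp4* in Wild-type luminal cells to 99.7 and 392 CPM, and its part in this was not tested.

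The *Adipoq*-positive cells of 1 library were not alike. Among the 96 Wild-type cells with at least 5 *Adipoq* UMIs per 10000 (a group formed after the data had been seen), every cell had *Fabp4* and *Lpl*, 95 had *Car3*, and 92 had *Plin1*. The late genes were patchier. *Retn* was seen in 78 cells, with a median of 124 CPM and a highest cell of 4600 CPM. *Nnat* was in 56 cells and *Hp* in 43 cells, the highest at 4639 and 3173 CPM. *Cfd*, the adipsin gene, was in 8 cells, and 78.1% of its 329 UMIs came from 2 cells at 10910 and 7873 CPM. In *Mgp*-KO cells of this kind 7 of 23 had *Cfd*, and 2 cells held 76.4% of 622 UMIs. In Pd-KO cells 3 of 17 had it. A mean for *Cfd* in any of these groups is therefore that of a few cells. *Pck1* was in 16 of the 96 cells, up to 1802 CPM.

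Of the 96 cells, 34 lay in a cluster of cycling-like cells, against 2 of 23 in *Mgp*-KO and 2 of 17 in Pd-KO mice. The cluster was led by *Hist1h2ap*, *Pclaf* and *Top2a* and had *Mki67* raised. The hemoglobin genes *Hbb-bt*, *Hbb-bs* and *Hba-a1* were also among its leading genes. In the Wild-type library the cycling cells had most members within 2 times of the level of the other *Adipoq*-positive cells. Both groups were picked at the same *Adipoq* threshold, so like levels of members that rise with *Adipoq* are in part set by the gate. Of 30 members compared, none was 2 times higher and 4 were lower by that fold (*Cidec*, *Hp*, *Cfd*, *Pck1*), with a median log2 ratio of -0.39. All of the 30 but *Fabp5* and *G0s2* (log2 ratios of 0.14 and 0.12) were lower in cycling cells to some degree. The median over 3880 genes was 0.00, and 5.15% of them passed the fold, 4.20% higher and 0.954% lower. *Cidec* was 31.0 CPM in cycling and 73.9 CPM in the other cells, *Hp* 118 and 237.5 CPM and *Pck1* 4.93 and 73.9 CPM. *Adipoq* itself was 1257 and 1593 CPM. Cycling *Adipoq*-positive cells had a median depth of 44378 UMIs, and 5 of the 34 were among the called doublets. The part of doublets in their profile was not tested.

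A second question was which other cell types use these genes. Classes were named from fixed marker lists by their clusters, with the scoring set after a first clustering had been seen. A member was called above background when its level was over 2 times that of free RNA of the library. Of the 38 members, 15 had the same highest class in all 3 libraries. The stages gated by *Adipoq* were not ranked as classes, here or below. Endothelial-like cells were that class for 8 of the 15. The share over all genes was not taken for either count, so they do not set the members apart from other genes. Members of very low level were ranked too, such as *Lep* at 0.466 CPM in its highest Wild-type class. CPM here are not divided by length, so levels are compared between cells and not between genes.

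Endothelial-like cells (829, 240 and 692 cells) had *Fabp4*, *Cd36* and *Aqp7* over 2 times free RNA in all 3 libraries and *Fabp5* in both knockouts. *Fabp4* was 22430, 35550 and 30100 CPM in the 3 libraries, which in the Wild-type library was close to the 25190 CPM of *Adipoq*-middle cells. *Cd36* was 1923, 2671 and 3109 CPM, several times its 509 CPM in Wild-type *Adipoq*-high cells. *Aqp7* was 101.5, 137 and 191 CPM, and *Mgll* 867, 1125 and 1151 CPM. *Fabp5* was 1360, 2261 and 2250 CPM. *Lpl*, by contrast, was 420, 185 and 183 CPM there. *Lipe* (58.1, 81.7 and 97.9 CPM) and *Acacb* (16.9, 42.9 and 50.6 CPM), the mitochondrial acetyl-CoA carboxylase, were also highest in this class. *Adipoq* was 3.58, 9.43 and 2.75 CPM there, near the background in the Wild-type library. Capillary endothelium is known for fatty acid transport by the products of *Fabp4* and *Cd36*.

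The set of mural cells overlapped that of endothelial-like cells, in which *Pnpla2* was also called above background in each library. In smooth muscle-like cells *Pnpla2* was 438, 453 and 196 CPM, the highest of the ranked classes in each library. *Adipoq*-high cells, which were not ranked, had 462, 898 and 444 CPM. *Plin1* was 105, 26.1 and 35.1 CPM there, and *Plin4*, a perilipin of muscle and fat, 60.6, 48.9 and 25.2 CPM. *Slc2a4*, the insulin-dependent glucose transporter of muscle and fat, was 52.2, 50.5 and 45.7 CPM in smooth muscle-like and 49.1, 47.2 and 72.7 CPM in pericyte-like cells, above its 28.4 CPM in Wild-type *Adipoq*-high cells. Pericyte-like cells had *Fabp4* at 13790, 15350 and 9986 CPM and *Cd36* at 545, 452 and 466 CPM. For both genes they ranked next after endothelial-like cells in each library. *Fabp4* was called above background there in each library, and *Cd36* in the Wild-type and *Mgp*-KO libraries but not in Pd-KO. *Plin1* in the knockout libraries was thus lower in smooth muscle-like cells too, by log2 ratios past 1 in both, as 11.8% and 17.1% of all genes were in either direction.

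In luminal epithelial-like cells of the mammary gland *Hp* was 112, 285 and 165 CPM, *Dgat2* 38.4, 39.3 and 29.0 CPM and *Me1* 37.9, 38.9 and 52.7 CPM. For each gene this was the highest ranked class in all 3 libraries. *Hp* and *Dgat2* were called above background there in each library, and *Me1* in none. The unranked *Adipoq*-high cells had more, with *Hp* at 509, 919 and 923.5 CPM, *Dgat2* at 108, 157 and 107 CPM and *Me1* at 53.0, 41.8 and 124 CPM. Schwann-like cells, which make lipid for myelin, had *Scd2* at 375 CPM (339 to 413) in 158 Wild-type cells and 535 CPM (446 to 637) in 52 Pd-KO cells, against 120.5 and 169 CPM in interstitial cells. In 19 *Mgp*-KO Schwann-like cells it was 479 CPM (349 to 640). *Fasn*, *Acaca*, *Lpin1* and *Elovl6* were highest in the same class in the Wild-type and Pd-KO libraries. In Wild-type Schwann-like cells neither *Scd2* nor any of these genes was called above background. In those of Pd-KO all of them were, *Acaca* excepted. Some Wild-type leads were small. *Lpin1* was 23.1 CPM, against 22.2 CPM in *Thsd7a*/*Car3* cells, and *Acaca* 19.4 CPM, against 17.3 CPM in cycling-like cells. *Scd1* was instead highest in the cells of *Fgf10* and *Col18a1* stroma of the Wild-type and Pd-KO libraries, at 100.3 and 80.9 CPM. It was called above background there in neither.

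**Figure D2:**
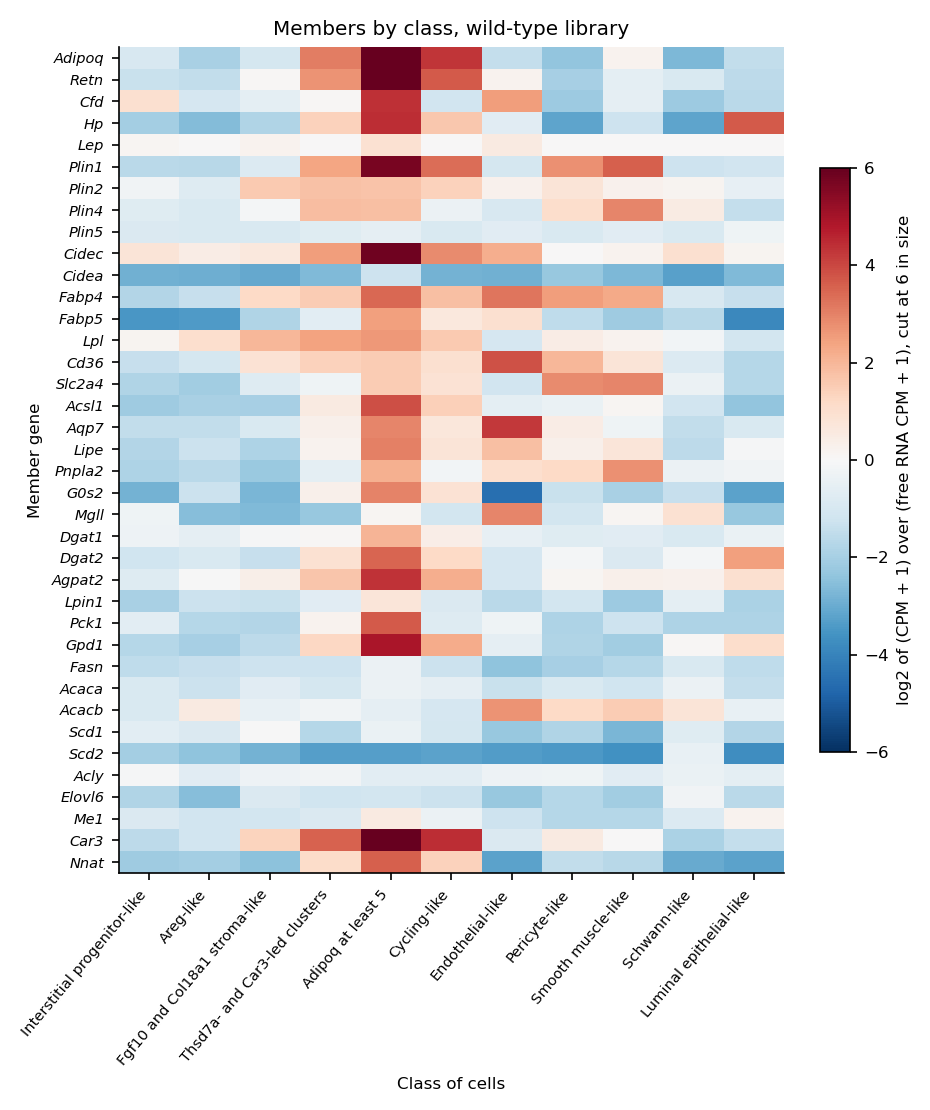
Level of the 38 members in 11 groups of Wild-type cells, as log2 of the ratio of CPM + 1 to free-RNA CPM + 1 (colour scale from -6 to 6, values beyond drawn at the end). *Adipoq*, *Retn*, *Plin1*, *Cidec* and *Car3* peak in the cells with at least 5 *Adipoq* UMIs per 10000, while *Fabp4*, *Cd36*, *Aqp7* and *Mgll* are also above free RNA in endothelial-like cells, *Pnpla2* and *Slc2a4* in smooth muscle-like cells and *Hp* and *Dgat2* in luminal epithelial-like cells.

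The third question was how the members compared between genotypes. *Adipoq*-positive cells were fewer in both knockout libraries. *Adipoq*-high cells made up 0.133% of the Wild-type library (0.0728% to 0.223%), 0.0557% of that of *Mgp*-KO (0.0224% to 0.115%) and 0.0454% of that of Pd-KO mice (0.0124% to 0.116%), on 14, 7 and 4 cells, and these intervals overlap. With the threshold at 5 *Adipoq* UMIs per 10000 they were 0.913% (0.740% to 1.11%), 0.183% (0.116% to 0.274%) and 0.193% (0.112% to 0.309%), on 96, 23 and 17 cells, and the Wild-type interval lay above both others. After each cell was thinned to 2000 UMIs, an *Adipoq* UMI was in 1.65% of cells in the Wild-type, 0.398% in the *Mgp*-KO and 0.340% in the Pd-KO library, against 4.29%, 0.652% and 0.771% before thinning. In luminal cells thinned in the same way *Adipoq* was seen in 0.542%, 0.167% and 0%.

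These shares differed between cells of the 2 sexes, and the libraries differed in their make-up by sex. Cells called female by *Xist* were 22.2%, 43.4% and 23.2% of the 3 libraries, and cells called male by Y-linked genes 40.7%, 17.6% and 43.2%. Among female cells 5 *Adipoq* UMIs per 10000 were reached by 0.343% (0.148% to 0.675%) in the Wild-type, 0.0734% (0.0200% to 0.188%) in the *Mgp*-KO and 0 of 2049 cells in the Pd-KO library, the last allowing a share up to 0.180%. Among male cells the shares were 1.03% (0.749% to 1.38%), 0.633% (0.347% to 1.06%) and 0.341% (0.182% to 0.583%). In each library the share was higher in male than in female cells, on 44 against 8, 14 against 4 and 13 against 0 cells. Cells with both signals or with neither were left uncalled. The called cells were thus only part of the 96, 23 and 17 cells of the 3 libraries. What the uncalled cells would add to these shares was not tested. For *Mgp*-KO the intervals overlapped those of Wild-type cells of the same sex. For Pd-KO male cells they did not.

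**Figure D3:**
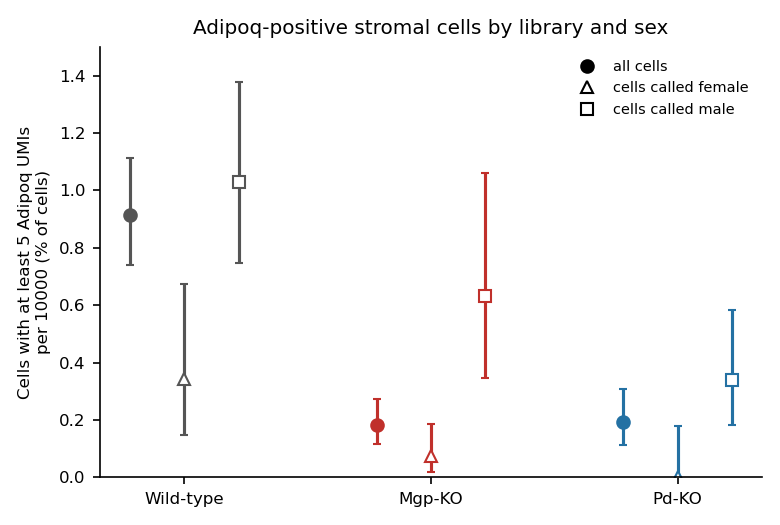
Share of cells with at least 5 *Adipoq* UMIs per 10000 (percent of cells, linear axis) in each library, for all cells and for cells called female or male, with 95% Clopper-Pearson intervals. The Wild-type points lie above those of both knockouts for all cells and within each sex, and the male interval of *Mgp*-KO (0.347% to 1.06%) overlaps the Wild-type one (0.749% to 1.38%).

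Genotypes were compared first within each of the 2 clusters. The *Thsd7a*-led, preadipocyte-like cluster held 1315, 1365 and 689 cells and gave enough UMIs to compare 30 of the 38 members (at least 100 UMIs over the libraries). In *Mgp*-KO cells 7 of these were lower and 3 higher by at least 2 times, against 1.76% and 17.6% of all genes. In Pd-KO cells 8 were lower and 5 higher, against 2.48% and 23.1%. The median log2 ratio of the members was -0.38 in *Mgp*-KO and -0.42 in Pd-KO, and that of all genes 0.13 and 0.29. In the *Car3*-led cluster, with 880, 645 and 428 cells, 33 members were compared. There 7 were lower and 2 higher in *Mgp*-KO (1.66% and 9.75% of all genes), and 10 lower and 3 higher in Pd-KO (2.21% and 12.5%), with medians of -0.45 and -0.54 (all genes 0.18 and 0.29). The 2 comparisons share the Wild-type library.

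Taken over both clusters, 35 members were compared in 2195, 2010 and 1117 cells. In *Mgp*-KO 15 were lower and 3 higher, and in Pd-KO 12 were lower and 5 higher. Over 11628 genes 20.0% passed that fold in *Mgp*-KO, 17.6% higher and 2.39% lower, and 24.5% did in Pd-KO, 21.8% higher and 2.64% lower. The median log2 ratio was -0.80 and -0.68, against 0.16 and 0.32 over all genes, and thus larger in size than in either cluster. The *Car3*-led cells were 40.1%, 32.1% and 38.3% of the total, and 107, 24 and 24 of them had an *Adipoq* UMI. Without the cells that had an *Adipoq* UMI the medians were -0.37 and -0.20 (10 and 13 of 31 past 2 times, against 19.2% and 23.5%). When cells of at least 4000 UMIs were clustered, a smaller cluster led by *Car3* and *Adipoq* (182, 56 and 40 cells) was named adipocyte-like and stood outside the class, and the medians were -0.15 and -0.0033. When the members were allowed among the clustered genes, such a cluster held 124, 35 and 27 cells and the medians were -0.18 and -0.30. The size of the pooled median therefore depended on which cells were counted in.

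*Car3* was lower in both clusters. In *Thsd7a*-led cells it was 546 CPM in the Wild-type, 142 in the *Mgp*-KO and 125 in the Pd-KO library, log2 ratios of -1.94 (-2.02 to -1.86) and -2.13 (-2.23 to -2.02). In *Car3*-led cells it was 3045, 1347 and 1121 CPM, ratios of -1.18 (-1.22 to -1.13) and -1.44 (-1.49 to -1.39). *Fabp4* was 5685, 2930 and 1398 CPM in *Thsd7a*-led and 8717, 5314 and 3350 CPM in *Car3*-led cells, and so lowest in Pd-KO in both. *Fabp5* was 191, 91.8 and 78.3 CPM in the one and 820, 296 and 306 CPM in the other cluster. *Nnat* was 63.9, 11.5 and 17.7 CPM in *Thsd7a*-led and 99.9, 83.8 and 24.5 CPM in *Car3*-led cells, so the order of the knockouts differed between the clusters. Luminal epithelial-like cells had *Car3* at 48.5, 2.67 and 5.93 CPM and *Fabp5* at 46.7, 15.5 and 16.5 CPM, so that the background moved in the same direction, and its part in the result was not tested for single genes beyond the subtraction given in the closing section. Against free RNA the reading was another one. Over both clusters *Fabp4* and *Car3* passed 2 times free RNA in the Wild-type library, only *Car3* did in Pd-KO, and neither did in *Mgp*-KO. *Fabp5* passed it in no library.

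Most genes that came late along the stages were lower in both knockouts. *Gpd1* had only 46, 14 and 5 UMIs in *Thsd7a*-led cells and was 35.5, 11.9 and 5.60 CPM in *Car3*-led cells, with log2 ratios of -1.58 (-2.08 to -1.12) and -2.66 (-3.48 to -1.95). *Plin1* was 13.6, 1.07 and 4.74 CPM in *Thsd7a*-led and 89.3, 49.6 and 55.7 CPM in *Car3*-led cells. *Retn* was 5.23, 1.17 and 1.58 CPM in the one and 74.3, 28.7 and 52.5 CPM in the other. *Adipoq* was 16.9, 4.67 and 6.32 CPM and 228, 138 and 122 CPM in the same order. The knockouts were thus further from Wild-type in *Thsd7a*-led than in *Car3*-led cells for these 3 genes, and that difference was not tested. *Dgat2* was 6.64, 5.06 and 2.69 CPM and 21.2, 8.70 and 11.2 CPM. In *Car3*-led cells *Aqp7* was 9.52, 5.51 and 3.15 CPM and *Pck1* 7.32, 4.06 and 0.700 CPM, on 103, 14 and 2 UMIs. *Cidec* and *Hp*, both late, were exceptions. *Cidec* was 10.7, 13.1 and 3.15 CPM in *Car3*-led cells, with a ratio in *Mgp*-KO of 0.28 (-0.23 to 0.77).

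The early genes *Lpl*, *Cd36* and *Plin2* stayed within 2 times of Wild-type in both clusters, before any correction for genomic span. *Cd36* spans 107.1 kb, near the 106.1 kb of *Elovl6*, whose ratios that correction lowered, as given below. Corrected ratios of *Cd36* are not given here, so whether it stays within the fold is open. *Lpl* was 4745, 2881 and 3034 CPM in *Thsd7a*-led cells, ratios of -0.72 (-0.74 to -0.70) and -0.65 (-0.67 to -0.62), and 3878, 2983 and 4021 CPM in *Car3*-led cells, ratios of -0.38 (-0.41 to -0.35) and 0.05 (0.02 to 0.08). *Cd36* was 401, 306 and 234 CPM and then 307, 205 and 238 CPM, and *Plin2* 466, 373 and 245 CPM and then 359, 332 and 318 CPM. *Plin4* stayed within the fold too, at 32.1, 27.8 and 25.9 CPM and 21.2, 27.2 and 41.3 CPM. *G0s2* was 211, 129 and 109 CPM in *Thsd7a*-led and 596, 249 and 375 CPM in *Car3*-led cells, and *Agpat2* 29.4, 15.2 and 16.7 CPM and 103, 57.1 and 67.6 CPM. *Pnpla2* was 23.6, 21.1 and 11.8 CPM and 70.6, 58.6 and 27.7 CPM, lowest in Pd-KO in both clusters. *Lipe* was 29.3, 18.6 and 14.0 CPM in *Car3*-led cells. *Mgll* was 13.8, 9.82 and 19.6 CPM and 36.0, 14.5 and 28.7 CPM, and *Slc2a4* 4.41, 1.95 and 3.32 CPM in *Thsd7a*-led cells.

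Some genes went the other way. *Hp* was 1.84, 2.04 and 27.6 CPM in *Thsd7a*-led cells, on 38, 21 and 175 UMIs, a ratio of 3.91 (3.40 to 4.45) in Pd-KO, and 52.5, 38.3 and 155 CPM in *Car3*-led cells, a ratio of 1.56 (1.39 to 1.73). Luminal cells, the ranked class richest in *Hp*, had 112, 285 and 165 CPM, so the order of the libraries was another one there. *Scd2* was 45.6, 55.6 and 122 CPM in *Thsd7a*-led and 55.6, 66.1 and 144 CPM in *Car3*-led cells, ratios in Pd-KO of 1.42 (1.28 to 1.56) and 1.37 (1.20 to 1.55). *Acaca*, the cytosolic carboxylase, was 10.8, 42.4 and 65.7 CPM in *Thsd7a*-led and 12.5, 25.8 and 27.7 CPM in *Car3*-led cells. *Elovl6*, the elongase that follows *Fasn*, was 22.8, 49.2 and 60.5 CPM and 22.2, 22.9 and 31.2 CPM, and *Acacb* 1.5, 7.78 and 6.32 CPM in *Thsd7a*-led cells. *Acaca* and *Acacb* are long genes, and the files of the knockout libraries name a later version of the counting program than that of the Wild-type library. After subtraction of the running median of genes of like genomic span, the log2 ratios in *Thsd7a*-led cells were -0.16 and 0.15 for *Acaca*, 1.55 and 0.86 for *Acacb* and 0.21 and 0.15 for *Elovl6*. Those of *Scd2* in Pd-KO stayed at 1.43 and 1.30 in the 2 clusters. *Cfd* was 6.33, 85.8 and 4.20 CPM in *Car3*-led cells, on 89, 296 and 12 UMIs. In those of them without an *Adipoq* UMI it was 1.45, 4.80 and 1.97 CPM. The *Mgp*-KO level of *Cfd* in this cluster also lay below that of the library's free RNA, given in the closing section.

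**Figure D4:**
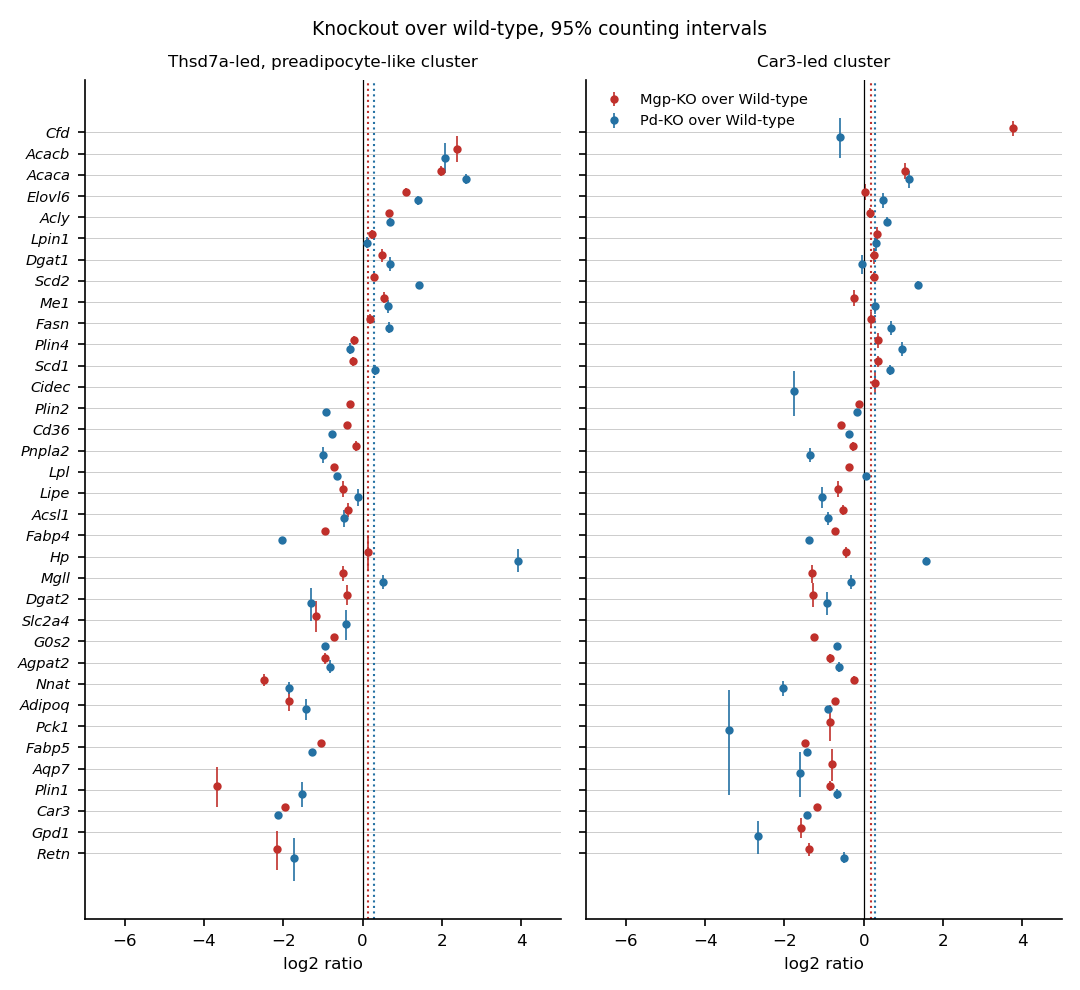
Log2 ratio of each knockout over Wild-type with 95% counting intervals, for members with at least 100 UMIs, in the *Thsd7a*-led cluster (left) and the *Car3*-led cluster (right), in the order of the ratio over both. Dotted lines mark the median of all genes (0.13 and 0.29 on the left, 0.18 and 0.29 on the right). Most members lie left of 0 in both panels, with *Car3* near -2 on the left, while *Acaca* in both knockouts and *Hp* and *Scd2* in Pd-KO lie right of 0.

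Within each sex the direction over both clusters was the same and the size differed. In cells called female the median log2 ratio was -0.52 in *Mgp*-KO and -0.89 in Pd-KO, and 9 and 16 of 26 members passed 2 times, against 20.3% and 23.1% of all genes. In male cells it was -0.32 and -0.46, with 5 and 13 of 33, against 15.9% and 24.1%. In either direction the share of *Mgp*-KO male cells' members past 2 times was thus close to that of all genes. By direction, 4 of these members were lower and 1 was higher.

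In interstitial progenitor-like cells 28 members could be compared. Their median log2 ratio was -0.30 in *Mgp*-KO and -0.40 in Pd-KO, against 0.16 and 0.20 over all genes, and 8 and 13 of the 28 passed 2 times, against 18.6% and 24.1%. *Fabp4* was 717, 165 and 110 CPM and *Car3* 43.2, 4.79 and 9.47 CPM, and in the Wild-type library both were below the luminal level and so read as background. *Car3* was above the luminal level of its own library in both knockouts (2.67 and 5.93 CPM), and *Fabp4* only in *Mgp*-KO (99.7 CPM, against 392 in Pd-KO). *Lpl*, which was above it, was 929, 561.5 and 451 CPM. *Cd36* was 52.5, 16.6 and 13.9 CPM. *Mgll* was higher in Pd-KO interstitial cells, at 96.6, 118 and 215 CPM. It spans 103.9 kb, near the 106.1 kb of *Elovl6*, and these levels are not corrected for genomic span.

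Once cells had at least 5 *Adipoq* UMIs per 10000, the members were not lower on the median. Of 33 compared, 9 were higher and 0 lower by 2 times in *Mgp*-KO, with a median log2 ratio of 0.30 (all genes 0.02, with 9.49% higher and 5.17% lower by the fold), and 5 were higher and 3 lower in Pd-KO, with a median of 0.10 (all genes 0.07, with 16.1% higher and 7.93% lower). *Car3* was 14350, 13470 and 10330 CPM and *Lpl* 5097, 3431 and 5345 CPM. *Hp* was 189, 611 and 753 CPM and *Scd1* 78.2, 212 and 245 CPM. Of the *Hp* UMIs of 23 *Mgp*-KO and 17 Pd-KO cells, 74.8% and 44.6% came from 2 cells. Among the 9 of *Mgp*-KO, 2 cells per gene held 76.4% of *Cfd*, 71.6% of *Cidec* and 68.4% of *Elovl6* UMIs. For *Acaca*, *Fasn*, *Scd1*, *Plin4* and *Acly* it was 59.5%, 51.6%, 43.8%, 30% and 24.1%. *Acaca* and *Elovl6* are long genes, and these ratios are before the span correction. Cycling-like cells, in which most members were lower, were 34 of the 96 Wild-type cells but 2 of 23 and 2 of 17 in the knockouts. Their part was not tested. *Gpd1* was 212, 207 and 55.9 CPM, and *Pck1* had 161 and 19 UMIs in Wild-type and *Mgp*-KO cells and 0 in Pd-KO cells. These cells were few. Members rose with *Adipoq* along the stages, so these ratios hold for cells picked at a like *Adipoq* level. Since the level of a class is a mean over its cells, fewer cells with a transcript and less of it in each cell give the same CPM.

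The other lipid genes of the pathway moved less than the members in *Thsd7a*/*Car3* cells. Of the 35 of 40 that could be compared, 5 were lower and 3 higher by 2 times in each knockout, with medians of -0.11 in *Mgp*-KO and 0.19 in Pd-KO. That is 14.3% lower and 8.57% higher. Of all genes 2.39% were lower and 17.6% higher in *Mgp*-KO, and 2.64% and 21.8% in Pd-KO. In either direction 22.9% of these lipid genes passed the fold, near the 20.0% and 24.5% of all genes. Lower in both were *Gpihbp1*, *Lgals12* and *Sncg*, and in *Mgp*-KO also *Angptl4* and *Rbp4*. *Gpihbp1*, *Sncg*, *Angptl4* and *Rbp4* were also lower by 2 times in *Mgp*-KO luminal cells, where 2.18% of all genes were. Higher in both was *Acsl4*, a long-chain acyl-CoA synthetase.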

How the data were processed

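The authors deposited raw UMI counts for 32285 genes and all barcodes of 3 libraries of the 10x 3′ v3 kit, unfiltered and not normalized. The submitters' notes name Cell Ranger 6.1.1 and GRCm39 and the paper mm10, whereas the file headers name Cell Ranger 4 for the Wild-type and 7.1.0 for both knockout libraries. Whether reads of introns were counted is not given in the sources used here, and it would raise long genes in a library that counts them. No strand or intron setting could be checked.

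Barcodes of at least 2000 UMIs with at most 10% mitochondrial UMIs were kept (426, 4 and 187 removed for mitochondria). Barcodes of at least 500 UMIs, the lower limit the study used, numbered 35992, 13309 and 10000. UMIs in cells were 145242566, 89572427 and 76383468. Counts per 10000 were log-transformed. From 2000 variable genes without the 38 members, 30 components were integrated in Python after the Harmony algorithm (sigma 0.1, theta 2, lambda 1). Leiden clustering (leidenalg 0.10.2, 20 neighbors, resolution 1.0) followed and gave 29 clusters, of which 2 were mixed and 1 stayed unnamed. The *Car3*-led cluster scored highest on the adipocyte list (0.811). A rule on leading genes moved it to the preadipocyte list (0.774), which holds its leading gene *Apoe*. It was given no name either since its leading genes are mostly of adipocytes, and it stayed in the pooled *Thsd7a*/*Car3* cells. Clusters were named by marker lists, and the score was set after a first clustering had been seen. Doublets were scored from simulated pairs, and the top 8% of each library were left out only as an alternative.

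UMIs were summed per class and library and given as CPM. Sums have exact Poisson, shares Clopper-Pearson and log2 ratios conditional binomial intervals at 95%, for counting error only. A count of 0 allows up to 3 counts. Ratios were taken for genes whose UMIs summed to at least 100, with a fold of 2. Shares of cells with a UMI were also given after thinning each cell to 2000 UMIs. Free RNA was taken from barcodes of 10 to 100 UMIs. *Xist* UMIs alone called a cell female, UMIs of Y-linked genes alone called it male. Genomic span came from GENCODE M21 on GRCm38 and covered 99.8% of genes. The script for ratios was tested on simulated counts. Python 3.11.15, numpy 2.4.6, scipy 1.17.1 and pandas 2.3.3 were used.

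The members and the lists were chosen with earlier results of these data known. Members described by role had at least 100 CPM in Wild-type *Adipoq*-high cells, those between genotypes a log2 ratio of at least 1 in size in a knockout, and those of other classes were the 3 of highest CPM over 2 times free RNA. Members outside these limits are named where a count would otherwise leave them out, chosen with their values in view.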

Additional observations from a re-analysis of the deposited data

Results flagged for a closer look

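Barcodes of 500 to 1999 UMIs, which entered no comparison, numbered 25055 in the Wild-type, 730 in the *Mgp*-KO and 994 in the Pd-KO library, and 3 members stood at 10 times or more of the Wild-type level in them. *Cfd* was 381 CPM (343 to 422) in *Mgp*-KO and 110 CPM (91.6 to 130) in Pd-KO barcodes of this size, against 9.79 CPM in the Wild-type library. *Cidec* was 23.6 CPM (15.0 to 35.5) in *Mgp*-KO barcodes, on 23 UMIs, against 1.79 CPM. *Acacb* was 31.8 CPM (22.5 to 43.6) in Pd-KO barcodes, against 2.88 CPM. The share of all genes past this rule was not taken, so the count does not set these members apart from other genes. The Wild-type barcodes of this size were many more and held free RNA to a larger part, and what this adds to the 4 differences was not tested. *Fabp4* in the same barcodes was 5845, 14500 and 10600 CPM and *Lpl* 1928, 801 and 372 CPM.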

How the results depend on the processing

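No paired analysis was possible because each genotype had 1 library and the labels give no replicate numbers. For the same reason no replicate could be left out. Over the *Thsd7a*- and *Car3*-led clusters together the direction of every median ratio was kept in all alternatives, but its size was not. With 4000 UMIs per cell it was -0.15 in *Mgp*-KO and -0.0033 in Pd-KO (7 and 10 of 30 members past 2 times), and with members allowed among the variable genes -0.18 and -0.30 (8 members past 2 times in *Mgp*-KO). In both settings a cluster led by *Car3* and *Adipoq*, was named adipocyte-like and stood outside the class. Without the *Car3*-led cluster the medians were -0.38 and -0.42 (10 in *Mgp*-KO), and in cells without an *Adipoq* UMI -0.37 and -0.20 (10 in *Mgp*-KO). In female cells the *Mgp*-KO median was -0.52 (9 members), and in male cells the medians were -0.32 (5 members) and -0.46. Without a minimum on genes and with cells weighted equally the *Mgp*-KO median was -0.54 and -0.52, and under median-ratio scaling the Pd-KO median was -0.9995. Less the level in luminal epithelial-like cells, for 16 members that were at least 2 times above it in every library and were not made by luminal cells, the medians were -1.21 and -1.06, with 10 and 9 members past 2 times. The share of all genes past 2 times was not taken for this subtraction, for 4000 UMIs or for members allowed among the variable genes. The counts in these settings therefore do not set the members apart from other genes. The settings without the *Car3*-led cluster, without *Adipoq* UMIs, with the luminal level removed, with a threshold of 5 and without cycling cells were chosen after seeing the data.

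The share of *Adipoq*-high cells was 0.561% for Wild-type, 0.103% for *Mgp*-KO and 0.125% for Pd-KO with a threshold of 10 UMIs per 10000, 0.00951%, 0.00795% and 0.0113% (Wild-type first, Pd-KO last) with 40, and 0.913%, 0.183% and 0.193% with 5. In female cells it was 0.0429% in Wild-type, 0.0550% in *Mgp*-KO and 0% in Pd-KO, and in male cells 0.136% in *Mgp*-KO. At 40 this was 1 cell in each library, and in female cells 1, 3 and 0 cells. The Wild-type share was not the highest in these settings, but no order can be read from so few cells. The knockouts changed order at 5 and 10, where their intervals overlapped. Members at 10% of the *Adipoq*-high level in cells of both clusters without *Adipoq* were 4 of 9 with the threshold at 40, 5 of 20 in the *Mgp*-KO and 3 of 16 in the Pd-KO library, where fewer members had enough UMIs. Of all genes, 94.0% in *Mgp*-KO and 92.3% in Pd-KO were at 10% or more. That share was not taken for the threshold at 40.

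For single genes over both clusters, the log2 ratio of *Acaca* was -0.26 in *Mgp*-KO and -0.046 in Pd-KO after the span correction. That of *Hp* in *Mgp*-KO was 0.17 without the *Car3*-led cluster and 0.20 with 4000 UMIs, and that of *Mgll* in *Mgp*-KO 0.14 with 4000 UMIs. The cause of the last 2 was not tested. Of the other 822 values for single genes, 725 stayed on their side of the fold or of 10%, 70 fell short of it and 27 passed it. At this depth 10 members had under 20 UMIs in the 14 Wild-type *Adipoq*-high cells and could not be placed in the order.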

Other observations

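Cells with more than 1000 CPM of *Cfd* numbered 9 (Wild-type), 27 (*Mgp*-KO) and 4 (Pd-KO), and 6, 8 and 3 of them lay in endothelial-like clusters, 1, 6 and 0 in the *Thsd7a*- and *Car3*-led ones. Free RNA held *Cfd* at 3.48, 287 and 40.7 CPM, so the *Mgp*-KO library had the most adipsin RNA outside cells although it had few *Adipoq*-high cells. The share of stromal cells in the *Car3*-led cluster was 8.65% (7.34% to 10.1%) of female and 11.5% (10.4% to 12.6%) of male Wild-type cells, 5.39% and 6.35% in *Mgp*-KO and 5.29% and 4.92% in Pd-KO cells. Unlike the *Adipoq*-positive share, it did not differ between the sexes beyond the counting intervals in either knockout library.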
